A study of Mus musculus with 60 samples.

Results

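Immediate early genes were followed through 60 RNA-Seq libraries of mouse forebrain. They were the 10 genes Fos, Fosb, Junb, Egr1, Egr2, Egr4, Arc, Npas4, Nr4a1 and Ier2, found by symbol among the 47597 gene entries of each deposited table. Each symbol matched 1 entry, and all 10 passed the filters on status and level in every comparison. The set was fixed by name and not by any measured value.

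Immediate early genes are transcribed within minutes of neuronal firing or growth factor signals, before any new protein is made. Calcium and kinase signals reach factors already bound to their promoters, chiefly CREB and SRF with its partners, and the transcripts decay quickly. In cortex and striatum they serve as marks of recent activity, and dopamine and glutamate input sets their level in striatal projection neurons. Most members encode transcription factors. Fos, Fosb and Junb are subunits of AP-1. Egr1, Egr2 and Egr4 are zinc finger factors, Nr4a1 is an orphan nuclear receptor, and Npas4 is a factor induced by calcium entry in neurons. Arc encodes a synaptic protein involved in AMPA receptor trafficking, and Ier2 a nuclear protein of less defined function.

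The libraries carried labels for 3-month-old c57BL-6N mice and fell into 10 groups of 6, each with 3 labelled males and 3 labelled females. For cortex and for striatum alike, the Δ12 line gave +/+, Δ12/+ and Δ12/Δ12 groups, and the KO line gave +/+ and KO/+ groups. The Δ12 allele is a germline deletion inside exon 12 of Htt, made so that the shortened exon of a human splice form is used. The KO allele arose in a founder whose edit also removed the normal splice donor of that exon, so all KO/+ mice descend from 1 edit. No stimulus was labelled, so the values are levels in mice as they were taken. By label each of 30 mice gave 1 cortical and 1 striatal library.

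Part of the labels went against the transcripts. Sex-linked transcripts matched the sex given in the label for 30 of 60 libraries. Slc17a7, a cortical glutamatergic marker, separated the libraries into 30 above 100 FPKM as deposited (120.8 to 233.8, called cortex-like) and 30 below (4.81 to 64.8, called striatum-like), and 30 of 60 libraries were in the class of their labelled tissue. Cortex-like libraries were the +/+, Δ12/+ and male Δ12/Δ12 libraries of the Δ12 line under both tissue labels. Striatum-like were the female Δ12/Δ12 libraries and all libraries of the KO line. All 6 cortical neuron markers had the higher median in cortex-like libraries and all 8 striatal neuron markers in striatum-like libraries. Htt was below every +/+ library in 3 of 6 striatal and 4 of 6 cortical KO/+ libraries, so each group below is named as labelled. For sex, 30 of 60 is the share that labels given at random would match. For tissue the share is fixed by the classes and says nothing of random labelling. Both libraries of each of the 30 labelled mice, labelled cortex and striatum, were in the same class. The class thus followed line, genotype and labelled sex in blocks and not the tissue label. The sex covariate, the labelled mice and the genotype groups used below all rest on the labels. Depth, estimated from the deposited interval bounds, was 12800000 to 27500000 fragments.

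The promoters of 4 members are shown because they include Fos, the best known member, and genes whose levels moved together closely, and because they hold letters that CREB binds. They are the 250 bases before the start of transcription in RefSeq, build GRCm38.p6, written 5′ to 3′ on the strand of the gene. Capitals mark the core letters of the cAMP response element, CGTCA or TGACG on the other strand.
Fos, chr12:85473640-85473889, plus strand: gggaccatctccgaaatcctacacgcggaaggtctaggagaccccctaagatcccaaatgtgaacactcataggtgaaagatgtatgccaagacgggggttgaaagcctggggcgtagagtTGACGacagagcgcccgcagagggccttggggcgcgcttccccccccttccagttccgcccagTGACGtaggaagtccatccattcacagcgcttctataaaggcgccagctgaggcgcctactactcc
Junb, chr8:84978749-84978998, minus strand: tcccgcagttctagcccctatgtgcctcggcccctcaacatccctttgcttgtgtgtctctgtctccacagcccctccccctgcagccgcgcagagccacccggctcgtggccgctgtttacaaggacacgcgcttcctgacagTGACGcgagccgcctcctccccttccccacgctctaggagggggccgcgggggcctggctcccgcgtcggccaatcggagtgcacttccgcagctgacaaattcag
Egr4, chr6:85513590-85513839, minus strand: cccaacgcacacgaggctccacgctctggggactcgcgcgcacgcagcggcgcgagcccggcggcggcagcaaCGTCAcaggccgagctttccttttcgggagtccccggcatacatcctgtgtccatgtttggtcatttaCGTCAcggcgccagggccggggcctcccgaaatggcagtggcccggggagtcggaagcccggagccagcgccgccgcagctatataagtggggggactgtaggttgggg
Nr4a1, chr15:101266596-101266845, plus strand: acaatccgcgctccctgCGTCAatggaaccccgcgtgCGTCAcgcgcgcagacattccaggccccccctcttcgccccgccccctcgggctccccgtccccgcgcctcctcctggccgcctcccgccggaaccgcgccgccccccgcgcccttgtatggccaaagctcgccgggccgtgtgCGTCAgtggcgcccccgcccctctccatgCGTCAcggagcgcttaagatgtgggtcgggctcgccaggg
The core letters begin 129 and 66 bases before the start of Fos, 106 bases before that of Junb and 177 and 109 bases before that of Egr4. In Nr4a1 they begin 233, 213, 69 and 40 bases before the start. Of the 7 members whose window was read, 6 held the core on either strand (Fos, Fosb, Junb, Egr4, Npas4 and Nr4a1), and Egr2 did not. Over all 32851 RefSeq windows of the same length the share was 17.8%. The window of Npas4 lies in an annotated exon. Egr2 has 5 windows, and only the one nearest its deposited start was read. The whole element TGACGTCA, the AP-1 site TGANTCA, the EGR site GCGTGGGCG and the CArG box bound by SRF matched in 0 of the 7 windows, and their shares over all windows were 1.55%, 6.75%, 0.536% and 1.47%. Egr1, Arc and Ier2 were not among the 7, and letters more than 250 bases before the start were not read. A match or its absence in these windows is a description of letters and says nothing of binding in these mice.

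Levels are given as FPKM divided by a scaling factor for each library, here called rescaled FPKM, and because FPKM is per kilobase the members can be set beside each other. In cortex-like libraries the medians ran from Junb, Arc, Nr4a1 and Egr1 through Ier2, Fos, Npas4 and Egr4 to Fosb and Egr2. In striatum-like libraries Egr1 came first, then Arc, Nr4a1, Junb, Egr4, Fos, Egr2, Fosb and Npas4, with Ier2 last. Neighbours in either order overlapped in their ranges over 30 libraries. The classes were read from expression, so the differences between them are described without a test. Over 16076 genes, 36.2% did not overlap between the classes, 19.3% with every striatum-like library above and 16.9% with every one below.

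**Figure D1:**
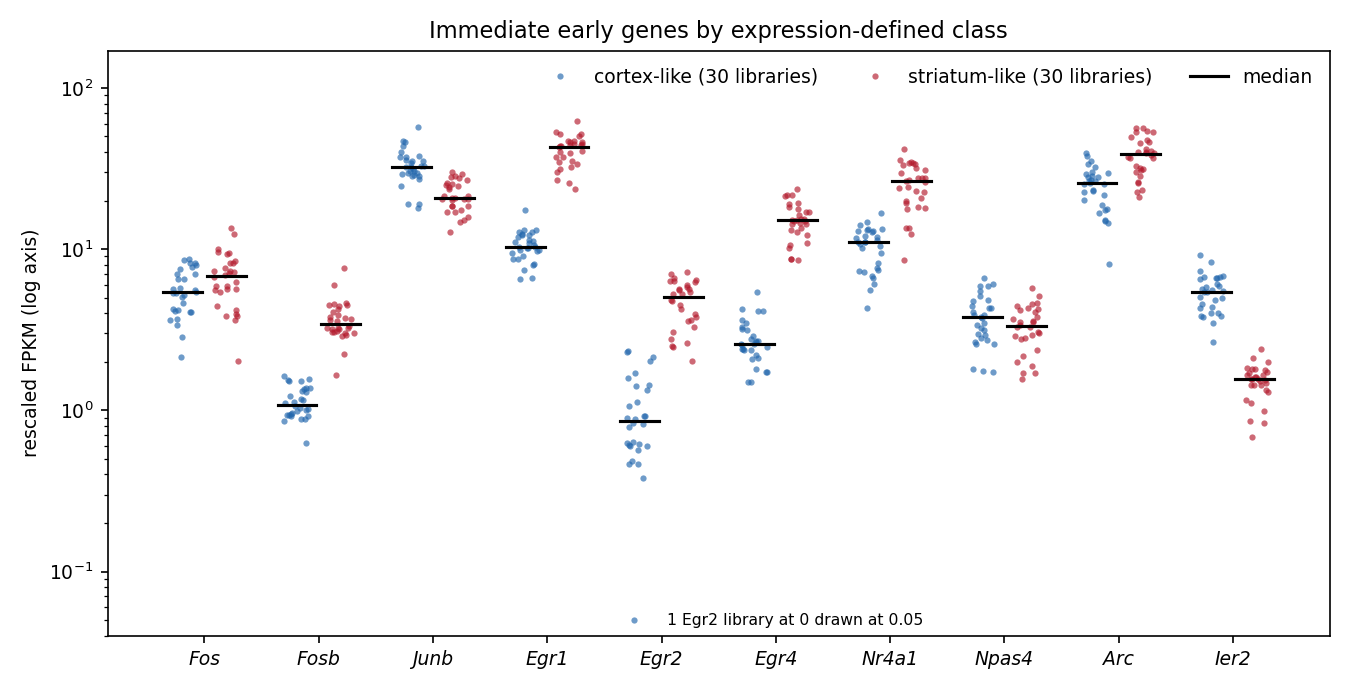
Rescaled FPKM of the 10 members (log axis) in 30 cortex-like and 30 striatum-like libraries, where 1 point is 1 library and bars are medians. Egr1, Egr4 and Fosb lay higher in every striatum-like library, Ier2 lay lower in every one, and Fos and Npas4 overlapped broadly.

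The zinc finger genes stood furthest apart. Egr1 (ENSMUSG00000038418) had a lowest, median and highest level of 6.49, 10.3 and 17.6 in cortex-like libraries and 23.6, 43.2 and 62.0 in striatum-like libraries. Its ranges did not overlap, and the ratio of medians was 4.21. Egr4 (chr6:85511121-85513589, GRCm38, minus strand) had 1.51, 2.57 and 5.41 against 8.54, 15.1 and 23.6, again with no overlap and with a ratio of 5.86. Egr2 (chr10:67535475-67542188, plus strand) was the lowest of these genes, with 0, 0.857 and 2.32 against 2.01, 5.05 and 7.21. For Egr2, 29 of 30 striatum-like libraries were above the highest cortex-like one. Its values were the least precise of the set, since it was listed at 0 in 1 library and the deposited interval reached 0 in 18, with a median half-width of 51.4% of the value. On FPKM as deposited Egr4 still did not overlap, whereas Egr1 did.

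The AP-1 genes did not move as a family between the classes. Fosb (chr7:19302696-19310051, minus strand), whose products include the stable ΔFosB of chronic stimulation, had 0.624, 1.08 and 1.63 against 1.66, 3.46 and 7.65. Every striatum-like library was above every cortex-like one on the rescaled scale, with a ratio of medians of 3.19, but the ranges overlapped on FPKM as deposited. Fos (chr12:85473890-85477273, plus strand) had 2.13, 5.38 and 8.64 against 2.04, 6.78 and 13.5, overlapping over most of its range. The difference of its log2 means was 0.24 in favour of striatum-like libraries and turned to -0.10 on FPKM as deposited. Junb (chr8:84976909-84978748, minus strand) went the other way, with 17.9, 32.4 and 57.3 against 12.8, 20.7 and 30.0. For Junb, 7 striatum-like libraries were below the lowest cortex-like one and the ratio of the cortex-like to the striatum-like median was 1.56. The Junb gene of GENCODE M21 starts at 84974484, outside the deposited entry, and overlaps Prdx2 on the opposite strand. Whether Prdx2 reaches the deposited entry was not examined, so it is not known whether reads of the pair were mixed. The strand setting of the quantification was not stated.

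Nr4a1 and Arc were higher in striatum-like libraries with some overlap. Nr4a1 (chr15:101266846-101274792, plus strand) had 4.31, 11.1 and 16.7 against 8.58, 26.3 and 41.5, and 26 of 30 striatum-like libraries were above the highest cortex-like one. Arc (chr15:74669083-74672570, minus strand) had 8.12, 25.6 and 39.7 against 21.0, 38.8 and 56.7, with 13 of 30 above. The ratios of medians were 2.38 and 1.51.

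Npas4 and Ier2 were not higher in striatum-like libraries. Npas4 (chr19:4984355-4989971, minus strand) had 1.73, 3.78 and 6.60 against 1.57, 3.35 and 5.74, and 3 striatum-like libraries were below the lowest cortex-like one. Ier2 (chr8:84661331-84662852, minus strand) had 2.67, 5.45 and 9.17 against 0.686, 1.56 and 2.39. Every striatum-like library was below every cortex-like one, also on FPKM as deposited, and the ratio of the cortex-like to the striatum-like median was 3.50. The median gene differed between the classes by 0.06 (log2) on the rescaled scale and by -0.25 as deposited, so members with small differences depend on the scale.

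Some lists of cell markers moved with the classes as well. The summed endothelial, microglia, astrocyte and leptomeningeal markers overlapped between the classes. Summed over their lists, striatal neuron markers ran from 92.2 to 467 rescaled FPKM in cortex-like libraries (Drd2 at 0 in at least 1) and from 896 to 1820 in striatum-like libraries. Blood cell markers ran from 693 to 2355 against 119 to 206, and oligodendrocyte markers from 331 to 645 against 809 to 1320. Not every gene of these 2 lists went with its sum. Of 5 blood cell markers, 4 had the higher median in cortex-like and 1 in striatum-like libraries. Of the 7 oligodendrocyte markers measured, 5 had it in striatum-like and 2 in cortex-like libraries. Choroid plexus markers ran from 2.40 to 384 against 35.1 to 2130, with 6 of the 8 at 0 in some cortex-like library. Their part in the levels of the members was not tested. In bulk tissue a lower level can mean fewer cells of a type or less RNA in each, and these cannot be told apart.

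Covariation was then read within each class over its 30 libraries, as the Pearson r of log2(rescaled FPKM + 0.5) for the 45 pairs, with Spearman's rho beside it. Two-sided permutation tests were adjusted by Benjamini-Hochberg over the 90 pairs of both classes. By label, 15 mice gave 2 libraries each to a class, 1 labelled cortex and 1 labelled striatum. The tissue label thus goes against the class for 1 library of each pair. If the mouse labels hold even so, the libraries are not independent and the p-values are then too small. In striatum-like libraries 39 of 45 pairs were positive, the median r was 0.593 and 28 pairs passed the test, all positive (30 by rho). In cortex-like libraries 42 were positive, the median r was 0.314 and 15 passed, all positive (14 by rho). Leaving out 1 library at a time moved the median between 0.511 and 0.619 in striatum-like and between 0.281 and 0.368 in cortex-like libraries. With 1 mean for each of the 15 labelled mice of a class, the median r was 0.365 in striatum-like and 0.133 in cortex-like libraries. The difference between the classes was not tested.

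**Figure D2:**
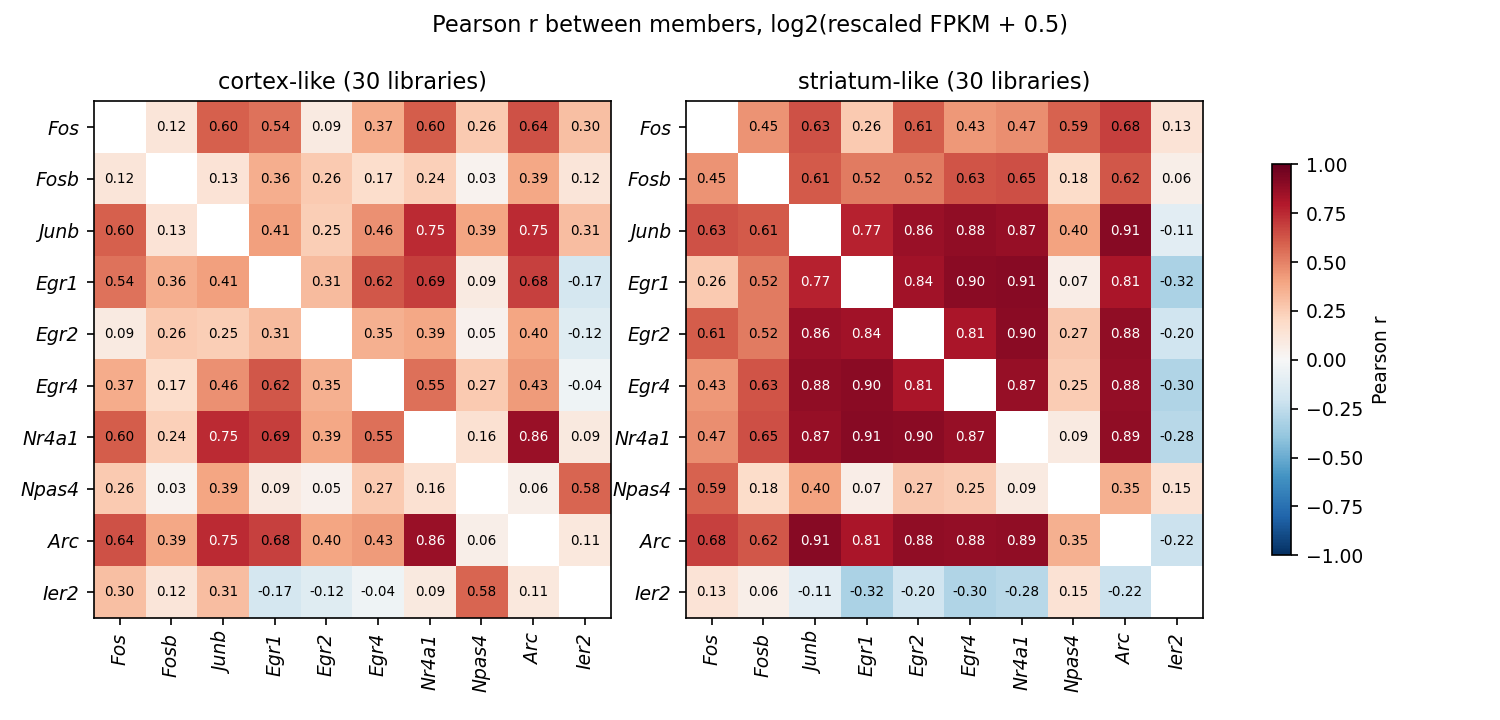
Pearson r for each pair of members over 30 cortex-like libraries (left) and 30 striatum-like libraries (right), colour scale from -1 to 1. Junb, Egr1, Egr2, Egr4, Nr4a1 and Arc form a block of r from 0.772 to 0.913 on the right, and Ier2 stands outside it.

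In striatum-like libraries the members that rose and fell together were Junb, Egr1, Egr2, Egr4, Arc and Nr4a1, a grouping made after the values were seen. Among these 6 the 15 values of r ran from 0.772 to 0.913 with a median of 0.877. The highest was Egr1 with Nr4a1 (r = 0.913, rho = 0.838), followed by Junb with Arc (r = 0.912, rho = 0.928) and Egr1 with Egr4 (r = 0.904, rho = 0.802). For these pairs the permutation p was 1e-05, the smallest that 100000 resamples can give, and the adjusted p was 4.74e-05. Without the 2 libraries furthest from the median on the first gene, r was still 0.876, 0.901 and 0.866. Arc is a synaptic effector and the others are transcription factors, so the block crosses the roles of the genes.

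Fos and Fosb followed that block less closely. Fosb had r from 0.517 to 0.648 with its 6 genes, all past the test. Fos had r = 0.683 with Arc (rho = 0.715, adjusted permutation p = 9e-05) and 0.635 with Junb, but 0.260 with Egr1 (adjusted permutation p = 0.238). The pair of Fos and Npas4 had r = 0.593 (rho = 0.558, adjusted permutation p = 0.00152), whereas Npas4 with Egr1 had r = 0.068. Ier2 had r from -0.317 to 0.148 with the other 9 members, and none of its pairs passed the test.

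**Figure D3:**
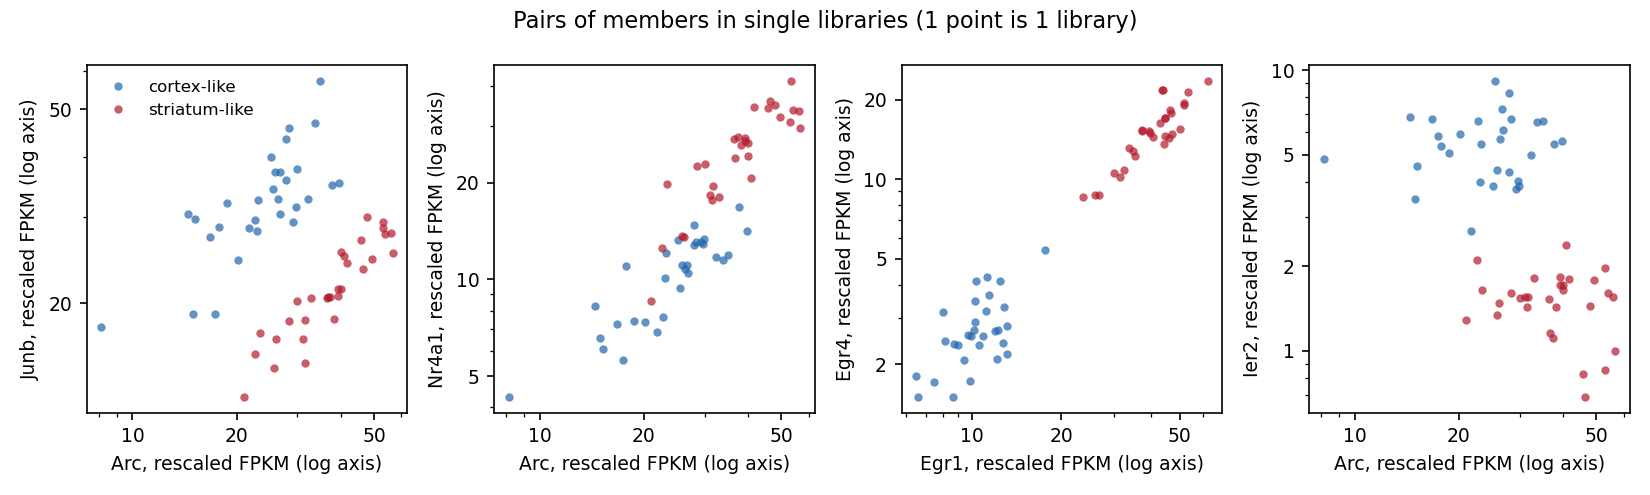
Rescaled FPKM of Junb, Nr4a1, Egr4 and Ier2 against Arc or Egr1 in single libraries (log axes), where 1 point is 1 library and colour gives the class. The first 3 pairs rise along a line within each class (r from 0.624 to 0.912), and Ier2 against Arc shows separate clouds for the classes.

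In cortex-like libraries the closest pairs were Arc with Nr4a1 (r = 0.864, rho = 0.836), Junb with Nr4a1 (r = 0.747, rho = 0.751) and Junb with Arc (r = 0.745, rho = 0.732), each with an adjusted permutation p of 4.74e-05. Egr1 joined Nr4a1 (r = 0.689) and Arc (r = 0.682), and Fos joined Arc (r = 0.640). Fosb and Egr2, the lowest members there with medians near 1 rescaled FPKM, passed in none of their pairs by r. By rho, Egr2 passed with Arc (rho = 0.526, adjusted permutation p = 0.00855) and with Nr4a1 (rho = 0.458, adjusted permutation p = 0.0264). Npas4 and Ier2 formed a pair of their own (r = 0.580, rho = 0.583, adjusted permutation p = 0.00194) that did not pass the test in striatum-like libraries. The pair of Egr1 and Ier2 had r = -0.174.

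Levels were also compared between the 2 libraries that share a mouse label. Both were always of the same class, so these values do not compare cortex-like with striatum-like tissue of a mouse. In each class r was taken over its 15 labelled mice, between the library labelled cortex and the one labelled striatum. Over the members it ran from -0.383 to 0.330 in the cortex-like class (median -0.162). In the striatum-like class it ran from -0.486 to 0.140 (median -0.139). None of the 20 relations passed the permutation test, and the lowest adjusted p was 0.880.

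Cell markers, depth and the scaling factor were set against each member in each class, 260 relations in all. Only Egr1 (r = 0.673, rho = 0.622, adjusted permutation p = 0.0117) and Egr4 (r = 0.653, rho = 0.593, adjusted permutation p = 0.0117) in striatum-like libraries passed, both with the summed striatal neuron markers. By rho neither passed (adjusted p = 0.0797 each), and without the 2 furthest libraries r was 0.606 and 0.580. In the same libraries oligodendrocyte markers had r from -0.470 to -0.008 with the members. Estimated depth had r from -0.089 to 0.279 in striatum-like and from -0.118 to 0.436 in cortex-like libraries. The scaling factor had r from -0.281 to 0.105 in striatum-like and from -0.593 to 0.142 in cortex-like libraries. Its lowest value was with Junb (rho = -0.578, adjusted permutation p = 0.0511 for r and 0.0797 for rho). Their part in the covariation was not tested.

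The pattern of the members was summarised as the mean of their z-scores within each class, and other genes were ranked by the lower of their correlations with it in the 2 classes. Among 14062 genes expressed in both classes the closest were Fosl2, another AP-1 subunit (r = 0.613 in cortex-like and 0.762 in striatum-like libraries), and Dusp1, a MAP kinase phosphatase (0.602 and 0.594). Pcnx followed with 0.565 and 0.568, and Nr4a3, a receptor of the same family as Nr4a1, with 0.548 and 0.705. Sik1, a kinase that restrains CREB coactivators, had 0.543 and 0.697. The rest of the first 10 were Nin, Zfhx2, Midn, Btg2 and 5330417C22Rik, with r from 0.509 to 0.632. Of these 10 genes, 5 were on the list of other rapid activity-induced genes (Fosl2, Dusp1, Nr4a3, Sik1 and Btg2).

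That list had 31 of 38 genes expressed in both classes. Its median r with the members was 0.354 in cortex-like and 0.512 in striatum-like libraries, with 17 and 24 genes over 0.3, against a median of 0.0247 and 0.0139 and a share over 0.3 of 14.1% and 11.2% for all 14062 genes. Its genes did not all follow. Klf6, a zinc finger factor, had r = -0.440 and 0.056, Gadd45g, a growth arrest gene, had -0.095 and 0.406, and Crem, a CREB relative, had -0.021 and 0.473. Rgs2, a regulator of G protein signalling, had 0.014 in cortex-like and 0.659 in striatum-like libraries.

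Delayed activity-induced genes, mostly secreted and synaptic effectors, were measured for 12 of 16 genes. The median r was 0.063 and 0.383, with 2 and 7 genes over 0.3. The closest were Vgf, a neuropeptide precursor (0.402 and 0.548), Nptx2, a synaptic pentraxin (0.331 and 0.573), Rasgrp1 (0.260 and 0.425) and Inhba (0.196 and 0.672). Nrn1 (-0.424 and -0.235), Pcsk1 (-0.343 and -0.021), Crh (-0.085 and -0.139) and Plk2 (-0.048 and 0.609) came last. For the 20 genes of the signal relay upstream (NMDA receptor subunits, calcium and MAP kinases, CREB, SRF and MEF2 factors) the median r was 0.234 and 0.271, with 8 and 10 genes over 0.3.

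**Figure D4:**
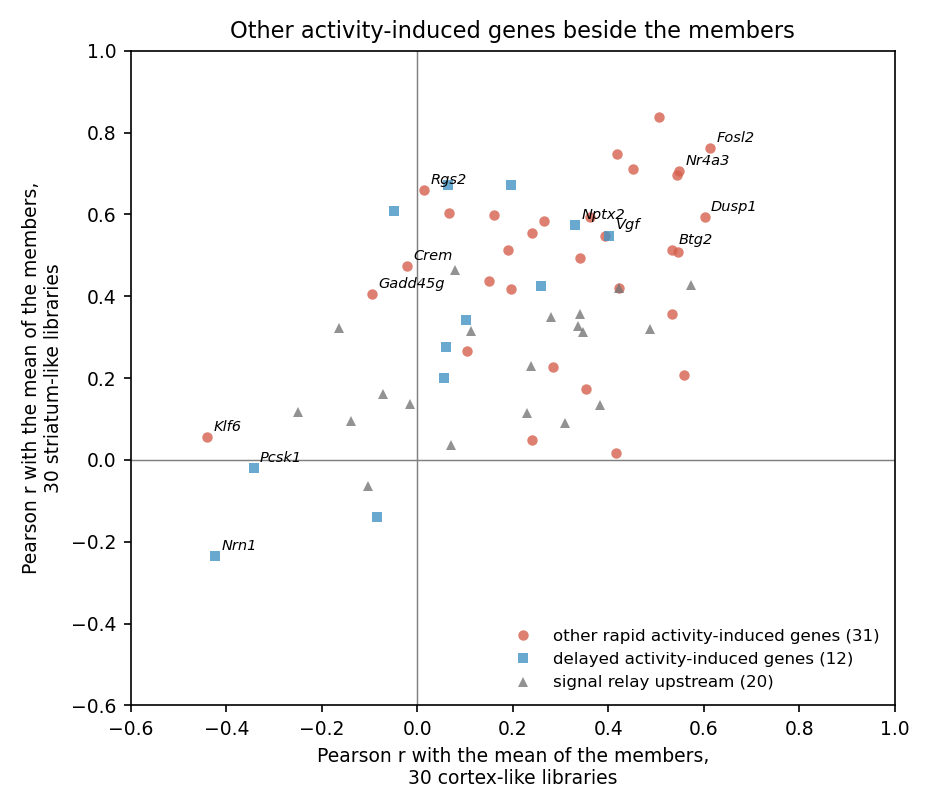
Pearson r with the mean pattern of the members in 30 cortex-like (horizontal axis) and 30 striatum-like libraries (vertical axis), where 1 point is 1 gene of the rapid (31), delayed (12) or relay (20) list. Rapid genes lie highest, with Fosl2 at 0.613 and 0.762, and Nrn1 and Klf6 lie far to the left.

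The groups of the study were then compared as labelled, with limma on log2(rescaled FPKM + 0.5), labelled sex as a covariate, 12 libraries in each fit and Benjamini-Hochberg adjustment over all genes tested. Fold changes on this scale understate the change of low genes. The Δ12/Δ12 and Δ12/+ comparisons of a tissue share their +/+ libraries.

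In libraries labelled striatum, 4 members passed between Δ12/Δ12 and +/+, and 28.3% of all 15467 genes passed too (2278 higher and 2103 lower, but 1291 and 3045 on FPKM as deposited, and 2204 and 1435 after quantile normalization). Egr1 ran from 6.49 to 12.2 rescaled FPKM in the 6 +/+ libraries, from 9.93 to 12.7 in the 3 labelled male Δ12/Δ12 and from 33.8 to 39.4 in the 3 labelled female Δ12/Δ12 libraries. Egr4 ran from 1.80 to 3.65, from 2.42 to 4.27 and from 12.3 to 15.2 in the same order. The labelled females stood clear of the rest for both genes, while the labelled males overlapped the +/+ libraries for both. The 4 calls became 0 with no sex covariate, with a replicate block, and without any 1 of the 6 labelled females, where 5 to 33 genes passed in all.

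Egr2 showed the same split, from 0.379 to 2.29 in +/+, 0.604 to 2.14 in labelled males and 2.51 to 4.25 in labelled females. Ier2 was lower, from 3.48 to 6.60 in +/+, 2.67 to 4.00 in labelled males and 1.65 to 1.81 in labelled females. The 3 labelled females are striatum-like and the other 9 libraries of the comparison cortex-like. The log2 fold changes were 1.01 ± 0.22 (SE) for Egr1 (limma adjusted p = 0.0296), 1.23 ± 0.29 for Egr4 (0.0306), 0.83 ± 0.27 for Egr2 (0.0449) and -0.86 ± 0.19 for Ier2 (0.0296). The call of Egr2 was also lost on FPKM as deposited (adjusted p = 0.0608), after quantile normalization (0.0565) and with no filter (0.0683), and without 9 of the 12 libraries in turn.

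With the class as a covariate none of the 10 members passed. In this fit only the labelled female Δ12/Δ12 libraries were striatum-like. Its group effect therefore compares the labelled male Δ12/Δ12 with the labelled male +/+ libraries alone, and the part of the class in the calls was not tested. The log2 fold changes were 0.40 for Egr1 (limma adjusted p = 0.312), 0.40 for Egr4 (0.426), 0.53 for Egr2 (0.543) and -0.54 for Ier2 (0.326). The number of genes called in all fell to 21, and the median log2 fold change of the members was 0.22 against 0.02 for all genes. Without the class it had been 0.36 against -0.0008.

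Of the related genes, in the fit without the class, where 28.3% of all genes passed, 6 of 33 rapid genes rose and 4 fell, 0 of 14 delayed genes rose and 4 fell, and 10 of 20 relay genes rose and 0 fell. Fosl2 (0.93), Sik1 (1.37), Nr4a3 (0.52) and Srf (0.88) were among the rapid genes that rose and Klf6 (-0.83) and Dusp6 (-0.56) among those that fell, on the log2 scale. Bdnf, a neurotrophin (-1.16), and Nrn1 (-1.57) were among the delayed genes that fell. With the class as a covariate, where the group effect rests on labelled males only, 0 genes of the 3 lists passed by limma. An unadjusted p under 0.05 was found there for 3 of 33 rapid, 2 of 14 delayed and 1 of 20 relay genes. Over all genes it was found for 2108 of 15467.

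In libraries labelled cortex the same split was present, with Egr1 from 10.2 to 13.1 in labelled male and from 26.7 to 45.9 in labelled female Δ12/Δ12 libraries, against 6.59 to 13.2 in +/+. None of the members passed by limma, where 0.924% of 15696 genes did (43 higher and 102 lower, but 68 and 46 after quantile normalization). An unadjusted p under 0.05 was reached by 4 of 10 members and 5978 of 15696 genes, which are similar shares. The largest log2 fold change was that of Egr2, 1.22 ± 0.41 (adjusted p = 0.0745), and Egr4 had 1.18 ± 0.31 (0.0697), Egr1 1.04 ± 0.31 (0.0697) and Ier2 -1.03 ± 0.25 (0.0697). Without the +/+ library labelled cortex, male 2, these 4 members passed, and so did 3844 of 15710 genes.

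The comparisons of libraries labelled Δ12/+ with those labelled +/+ gave no member past the test. All 12 libraries of each of these comparisons are cortex-like. In libraries labelled striatum, 0.00663% of 15077 genes passed (1 gene), and 0 members passed by limma. An unadjusted p under 0.05 was reached by 486 genes and 0 members. The largest member change was that of Egr2, 0.42 ± 0.28 on the log2 scale (adjusted p = 1.00). It was 0.25 without the library Δ12/+ male 3, which stood apart from the cortex-like class in its striatal neuron markers (467) and choroid plexus markers (384) and held the highest Egr1, Egr2, Egr4 and Nr4a1 of the class. In libraries labelled cortex, 0.0662% of 15095 genes and 0 members passed by limma, where 1263 genes and 0 members had an unadjusted p under 0.05. The largest member change was that of Nr4a1, -0.46 ± 0.22 (adjusted p = 0.602).

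In the KO line all libraries are striatum-like, so the comparison of KO/+ with +/+ stays within a class. In libraries labelled striatum, Egr1 had a lowest, median and highest level of 23.6, 34.9 and 44.4 rescaled FPKM in +/+ and 40.7, 48.4 and 53.4 in KO/+. Egr4 had 8.54, 12.2 and 16.3 against 14.4, 17.4 and 21.4, and Arc 21.0, 31.6 and 45.8 against 36.8, 42.9 and 56.0. The KO/+ libraries lay toward the upper end for all 3 genes, with overlap in each. Nr4a1 had 8.58, 21.0 and 34.2 against 23.8, 30.5 and 35.8, and Junb 12.8, 18.4 and 27.0 against 20.6, 22.1 and 27.8.

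None of the 10 members passed by limma there, where 6.91% of 15808 genes did (555 higher and 538 lower, but 23 and 283 on FPKM as deposited). An unadjusted p under 0.05 was reached by 5 of the 10 members and by 3449 of the 15808 genes. The log2 fold changes were 0.59 ± 0.27 for Nr4a1 (adjusted p = 0.227), 0.50 ± 0.15 for Egr4 (0.0735) and 0.46 ± 0.14 for Egr1 (0.0845), and the median of the members was 0.41 against 0.02 for all genes. Without the +/+ library male 3 Egr1 passed, with 0.54 (adjusted p = 0.0366), where 1243 of 15817 genes passed. Without the +/+ library female 3 Junb passed, with 0.51 (adjusted p = 0.0448), where 582 of 15787 genes passed. Without the +/+ library female 1 the change of Nr4a1 was 0.35. Fos (-0.02 ± 0.28), Npas4 (-0.06 ± 0.24) and Ier2 (-0.04 ± 0.15) had estimates near 0.

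The related genes were read against the 6.91% of all genes that passed there. Of the rapid list 3 of 33, a share near that of all genes, rose and 0 fell, namely Egr3, a zinc finger factor (0.54), Ier5 (0.51) and Srf (0.45, also on the relay list), on the log2 scale. Of the delayed list 3 of 12 rose and 0 fell, namely Nptx1, a pentraxin (0.94), Homer1, a postsynaptic scaffold (0.39), and Plk2 (0.31). Of the relay list 8 of 20 rose and 0 fell, among them Camk2a (0.44) and Ppp3ca (0.39). Summed striatal neuron markers ran from 896 to 1286 in +/+ and from 1323 to 1669 in KO/+ libraries, and oligodendrocyte markers from 1103 to 1320 and from 902 to 1024, both without overlap. Their part in these changes was not tested.

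In libraries labelled cortex of the KO line, 0.0885% of 15820 genes (14, 1 higher and 13 lower) and 0 members passed by limma. An unadjusted p under 0.05 was reached by 2202 genes and 0 members. On FPKM as deposited 110 genes passed, 4 higher and 106 lower. The largest member change was that of Egr2, 0.32 ± 0.24 on the log2 scale (adjusted p = 0.589), and it was 0.18 without the +/+ library female 2 and 0.48 without the +/+ library female 1. Whether the KO allele acts differently under the 2 tissue labels was not tested.

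Libraries labelled striatum and cortex of +/+ mice were compared within each line. All 12 libraries of the Δ12 line comparison are cortex-like, and all 12 of the KO line comparison are striatum-like. Neither comparison therefore sets the 2 expression-defined classes against each other. In the Δ12 line 0.0132% of 15127 genes (2) and 0 members passed by limma, where 785 genes and 0 members had an unadjusted p under 0.05. The largest member change was that of Fos, -0.48 ± 0.24 (adjusted p = 0.917). In the KO line 0% of 15669 genes and 0 members passed by limma, where 1882 genes and 0 members had an unadjusted p under 0.05. The largest change there was that of Npas4, -0.35 ± 0.19 (adjusted p = 0.486). Egr1, which differed 4.21-fold between the expression-defined classes, differed by -0.05 ± 0.18 and -0.16 ± 0.18 between the tissue labels on the log2 scale.

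**Figure D5:**
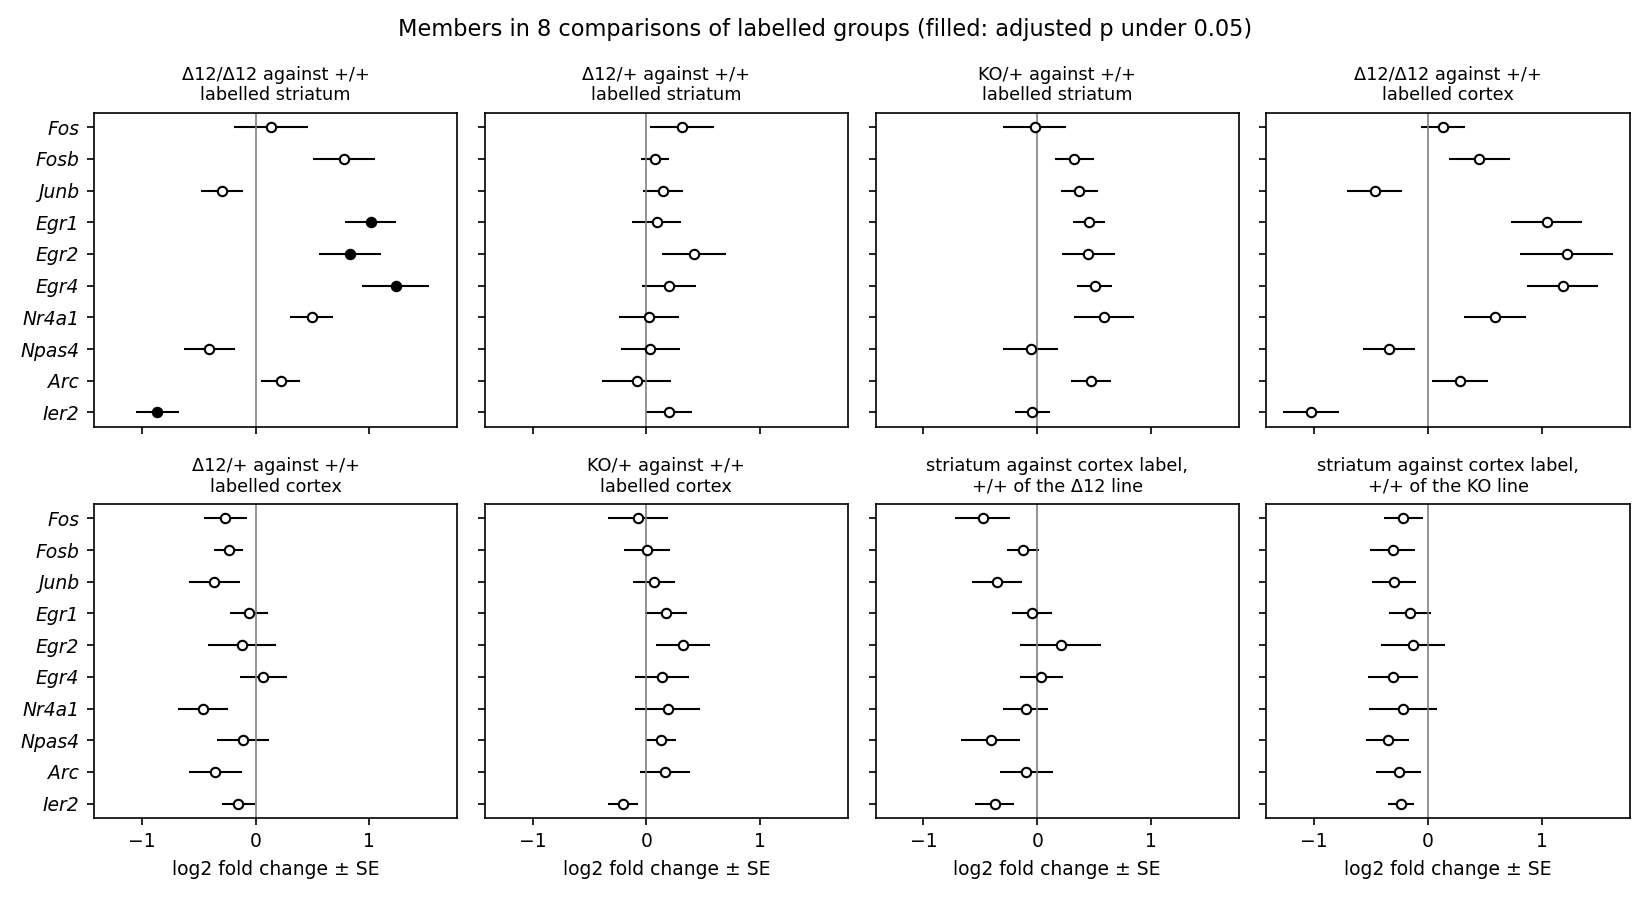
Log2 fold change of the 10 members with its SE in 8 comparisons of labelled groups of 6 libraries, where filled points have an adjusted p under 0.05. Egr1, Egr2, Egr4 and Ier2 are filled in the panel of Δ12/Δ12 with the striatum label, and no other point is filled.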

How the data were processed

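RNA was sequenced from 60 libraries (rRNA-depleted, directional, NovaSeq6000). The authors deposited FPKM for each gene entry and library, with interval bounds, in a layout like that of Cufflinks. The submitters' processing notes name bcl2fastq 2.20, Trimmomatic 0.30, TopHat2 2.0.14, SAMtools 1.3, HTSeq 0.6.1p1 and build GRCm38.p4, and the strand setting of the quantification is not given in the sources used here. Of 47597 entries, 23 whose quantification status was not OK throughout were left out. FPKM were divided by the median ratio of each library to the geometric mean over 13235 genes above 0 in every library (factors 0.761 to 1.38), log2 values were taken with a pseudocount of 0.5, and a fit tested only genes whose rescaled FPKM averaged 0.5 or more across its libraries. Depth was estimated from interval bounds of genes with 1 transcript of at least 2000 bases. It is an estimate, since 39.3% of the 40892 implied fragment numbers under 200 were within 0.1 of a whole number.

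Each comparison used limma 3.58.1 (R 4.3.3) on 12 libraries with labelled sex as a covariate, and a gene was called where its p, adjusted by Benjamini-Hochberg, was under 0.05. Correlations used two-sided permutation tests with 100000 resamples (Python 3.11.15, numpy 2.4.6, pandas 2.3.3, scipy 1.17.1, with matplotlib 3.10.9 for plots). On data simulated for the striatum-labelled comparison of KO/+ with +/+ (15808 genes), 62 of 100 genes changed by a log2 of 0.5, 87 of 100 changed by 1 and 5 of 15608 unchanged genes were called. The 6 libraries of a group are by label separate mice, and no source used here ties them to separate preparations, so p-values measure the spread between these libraries.

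The members, the lists of related genes and the tests were chosen with earlier results of these data known. All members are named. Other genes named are the 10 closest to the members by the lower of their class correlations, the 4 highest and 4 lowest of the rapid and delayed lists, and some called genes of the lists, chosen after their values were seen. Mbp (status) and Pam (several entries) were left out of lists. Promoters and letters came from RefSeq (GRCm38.p6). Arc and Ier2 have no window there and Egr1 was not used, while the window of Npas4 lies in an annotated exon. The library labelled striatum KO/+ female 3 has a title naming the Δ12 line and was grouped by its genotype label.

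Same-numbered cortical and striatal libraries are by label 1 mouse. For such pairs among the +/+ libraries, deviations from the group means had a mean correlation of 0.0809 in the Δ12 line and -0.0019 in the KO line. Alternatives were FPKM as deposited, quantile normalization, pseudocounts of 0.1 and 1, other filters, no sex covariate, a replicate block, a variance trend, an adjusted p under 0.1, the class as covariate, all 30 libraries of a tissue label and each library left out in turn. Scaling within the libraries of a fit was added after the data were seen, as was the class covariate for the lists.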

Additional observations from a re-analysis of the deposited data

Results flagged for a closer look

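Each member was looked at in each of the 10 groups of 6 for a library standing apart, its gap to the nearest other library being past Dixon's critical share of the range. This was met in 5 of 100 sets, and chance meets it in about 1 of 20. Fosb was at 7.65 rescaled FPKM in the cortex-labelled KO-line +/+ library male 2, above the next at 3.78 and the lowest at 2.25. Junb was at 19.0 in the striatum-labelled Δ12-line +/+ library male 3, under the next at 29.6 and the highest at 35.8. Egr2 stood apart in 3 groups. It was at 3.60 in the cortex-labelled KO/+ library male 1 (next 5.66, highest 6.65) and at 0.924 in the cortex-labelled Δ12/+ library male 2 (next 0.620, lowest 0.468). It was at 2.29 in the striatum-labelled Δ12-line +/+ library female 3 (next 0.918, lowest 0.379). Egr2 had the widest deposited intervals of the members. Opposite directions in every library of the 2 tissue labels, under the same genotype, were met in 0 of 30 sets of a member and a genotype.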

How the results depend on the processing

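No member's fold change between labelled groups that the text names as called or largest changed sign under an alternative, whereas the class difference of Fos did on FPKM as deposited (0.24 to -0.10), and the balance of genes called turned in some scalings, as given beside the comparisons. Between Δ12/Δ12 and +/+ in libraries labelled striatum, the 4 members called fell to 0 with no sex covariate, to 0 with a replicate block and to 0 with the expression class as covariate. With 1 library left out the number ran from 0 to 6. It was 0 without any 1 of the 6 labelled females, that is +/+ females 1, 2 and 3 and Δ12/Δ12 females 1, 2 and 3, and it was 6 without +/+ male 2. Genes called in all went from 4381 to 9, 5 and 21 under the first 3 of these settings, to 2085 with no filter and to 8067 with all 30 libraries of the tissue label, and ran from 5 to 6208 with 1 library left out. Under either tissue label the group effect of the fit with the class rests on labelled males only. The causes were not tested.

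In libraries labelled cortex, the members called between Δ12/Δ12 and +/+ went from 0 to 4 at an adjusted p under 0.1 and to 4 with all 30 libraries, and ran from 0 to 4 with 1 library left out. Genes called went from 145 to 4581 and 7972 in the first and second of these, and to 25 with no filter, 90 with a pseudocount of 0.1, 10 with no sex covariate, 9 with the replicate block and 12 with the class, and ran from 12 to 3844 with 1 library left out. Between KO/+ and +/+ labelled striatum, members went from 0 to 2 at an adjusted p under 0.1 and ran from 0 to 1 with 1 library left out, while genes called went from 1093 to 302 with the replicate block, 306 as deposited, 135 with all 30 libraries and 1844 at an adjusted p under 0.1, and ran from 560 to 1243 with 1 library left out. In the KO line labelled cortex, 14 genes became 110 as deposited, 28 with no filter, 34 at an adjusted p under 0.1, 1 with all 30 libraries and 0 with the block. For Δ12/+ labelled cortex, 10 genes became 32 by quantile normalization, 6 with a pseudocount of 0.1, 6 at a minimum of 1, 25 at an adjusted p under 0.1, 53 with all 30 libraries and 3 with the block. For Δ12/+ labelled striatum, 1 gene became 2 with no sex covariate, and 0 with the block and with all 30 libraries. Between the tissue labels of +/+ mice, 2 genes of the Δ12 line became 0 as deposited, by quantile normalization, with no filter and with the block, and 1 with no sex covariate. The 0 genes of the KO line became 11 as deposited, 3 by quantile normalization, 2 with a variance trend and 35 at an adjusted p under 0.1.

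The replicate block joins different mice in the 6 genotype comparisons, whose same-numbered libraries had mean correlations of -0.069 to 0.016. It changed no other call of a member, and in the tissue comparisons, where it pairs libraries of 1 labelled mouse, the members called were 0 with and without it. The median pairwise r with 1 mean for each labelled mouse (15 a class) was 0.133 in cortex-like and 0.365 in striatum-like libraries. It was 0.311 and 0.566 on deviations from the labelled group means, and over libraries of 1 tissue label it was 0.361 and 0.380 in cortex-like and 0.514 and 0.610 in striatum-like libraries. Drd2 gave the same classes. The deposited intervals limit Egr2, Ier2 and Fosb most, with median half-widths of 51.4%, 26.0% and 24.8% against 6.04% for Arc.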
